A study of Mus musculus with 18 samples.

Results

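The core circadian clock genes of mouse liver were followed here by 10 members chosen by symbol: Clock, Arntl, Per1, Per2, Per3, Cry1, Cry2, Nr1d1, Nr1d2 and Dbp. All 10 had a row among the 25266 genes listed for each of the 18 livers. The rule takes rows by name and uses no measured value, although the set of names was drawn up with earlier results of these data known. Male C57BL/6 mice carried ppp6r3 flox/flox alleles in every group (FF), and in LKO mice the same alleles were combined with Alb-Cre, in which the albumin promoter drives the recombinase in hepatocytes, so other liver cells keep the gene. From 8 weeks of age the mice received for 16 weeks either a control diet (CD, 10 kcal% fat) or a high-fat diet (HFD, 32.5 kcal% fat), with free access to food under 12 h of light and 12 h of dark. There were 4 FF CD, 4 LKO CD, 5 FF HFD and 5 LKO HFD mice, each with 1 RNA-seq library of liver. The label on library preparation names a small RNA kit and, beside it, a standard RNA-seq protocol, while the tables hold values for genes of all kinds, and which kit made these libraries is not settled by the sources used here. Ppp6r3, which encodes the SAPS3 subunit of protein phosphatase 6, was measured at 3.88 to 4.87 RPKM in the 9 LKO livers and at 7.55 to 10.98 RPKM in the 9 FF livers, so every library fitted its genotype label. RPKM is reads scaled to the length of the gene and to the mapped reads of the library, so levels can be set side by side between genes.

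The clock runs as a feedback loop inside each cell. The proteins of Clock and Arntl (BMAL1) bind E-boxes and switch on Per, Cry, Nr1d and Dbp genes. PER and CRY proteins then return to the nucleus and repress CLOCK:BMAL1, while REV-ERBα (Nr1d1) and REV-ERBβ (Nr1d2) repress Arntl through their own response elements, and DBP activates genes with D-boxes. In the liver of mice kept in light and dark, Arntl transcripts are high when those of Nr1d1 and Dbp are low, and the reverse, so that the levels in a liver depend strongly on the hour at which it was taken. AMPK, the kinase at the centre of the study, is known to phosphorylate CRY1 and mark it for degradation. Neither the labels nor the methods give the hour or the order in which these livers were collected. For serum measurements the methods give a fast of 4 h before blood was drawn from the heart, and they do not say whether the livers sequenced came from mice treated that way. A difference in sampling time between groups therefore cannot be told apart from diet and genotype with these labels.

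The letters through which the loop acts were read from the RefSeq promoter sequences (build GRCm38.p6, 250 bases before to 50 after each start), in which 9 of the 10 members were matched (all but Per2), with 13 starts in all. The 5 stretches with a motif before the start are shown because these letters link the members to each other. Capitals mark a motif, and each stretch is written 5′ to 3′ on the strand of the gene.
Per1, chr11:69098749-69098828, plus strand: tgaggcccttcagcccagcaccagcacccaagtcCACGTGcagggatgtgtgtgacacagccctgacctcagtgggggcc
Cry1, chr10:85185075-85185154, minus strand: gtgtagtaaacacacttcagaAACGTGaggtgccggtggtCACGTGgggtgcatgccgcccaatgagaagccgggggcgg
Cry2, chr2:92434210-92434269, minus strand: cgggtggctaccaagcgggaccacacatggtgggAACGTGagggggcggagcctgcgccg
Nr1d1, chr11:98775378-98775437, minus strand: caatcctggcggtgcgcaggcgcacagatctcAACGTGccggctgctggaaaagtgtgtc
Per3, chr4:151044806-151044885, minus strand: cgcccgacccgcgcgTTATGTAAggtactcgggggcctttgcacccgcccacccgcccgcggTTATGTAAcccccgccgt
The E-box CACGTG began at position -166 of Per1 and at -60 of Cry1, counted from the start, and 7.15% of all 32851 promoters in the table held it. The related E′-box CACGTT, searched on both strands like the others, was found in reverse at -79 of Cry1, at -166 of Cry2 and at -28 of Nr1d1, and in 4.68% of all promoters. The D-box TTATGTAA stood at -205 and again at -158 of Per3, against 0.938% of all promoters with at least 1 copy, and its other form TTACGTAA, held by 0.119%, was in no member's window. The half-site TAGGTCA, read by REV-ERB proteins, lay 31 bases into the transcript of Arntl (2.61% of all promoters). No window of Clock, Nr1d2 or Dbp held any of these letters, which says nothing about sites elsewhere. These motifs do not overlap in the stretches shown.

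By level the genes formed a wide ladder. Dbp was the highest, with a mean of 45.8 RPKM over the 18 mice, followed by Nr1d2 (20.1), Nr1d1 (18.3), Cry2 (7.66), Per2 (5.94), Per3 (5.34), Per1 (5.22), Cry1 (2.27), Clock (1.91) and Arntl (0.365). The low end was the activating arm, and the high end was the output gene and the REV-ERB arm. From the steps of the deposited values the libraries were estimated at 23.4 to 37.0 M mapped reads, at which Arntl rested on 14 to 52 reads a library, Cry1 on 91 to 283 and Clock on 344 to 954. Read numbers could not be recovered for Cry2, Nr1d1 and Dbp, whose exons overlap an exon of D930015M05Rik, Thra and Sphk2 on the opposite strand. Whether the counting used strand is not given in the sources used here, so their values may hold reads of those genes. In bulk liver, fewer cells of a type and less RNA per cell cannot be told apart.

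No clock gene passed the test in any comparison of diet or genotype. Differences were fitted with limma on log2(RPKM + 1) over the 11090 genes with a mean of at least 0.5 RPKM, and a gene was called at a fold above 1.5 and a Benjamini-Hochberg adjusted p under 0.05. Of the 10 members 9 were tested, since the mean of Arntl was below 0.5 RPKM, and Arntl was therefore taken from the same fit without the filter. For HFD against CD, 0 of 9 were called in FF mice, where 6.6% of all tested genes were called, and 0 of 9 in LKO mice (1.27% of all). For LKO against FF, 0 of 9 were called on CD (0.225% of all) and 0 of 9 on HFD (2.07%), and the interaction of diet and genotype called 0 of 9 (2.44%). At an unadjusted p under 0.05 limma gave 3 of 9 members for the diet in FF mice (33.7% of all tested genes) and 4 of 9 in LKO mice (22.3%). For the genotype it gave 1 of 9 on CD (7.67%) and 4 of 9 on HFD (19.3%), and for the interaction 1 of 9 (16.5%). With shares of called genes this low in the background, 9 genes with no call do not stand apart from the rest of the table. The comparisons share groups with each other, so the members' values in them are not separate evidence.

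**Figure D1:**
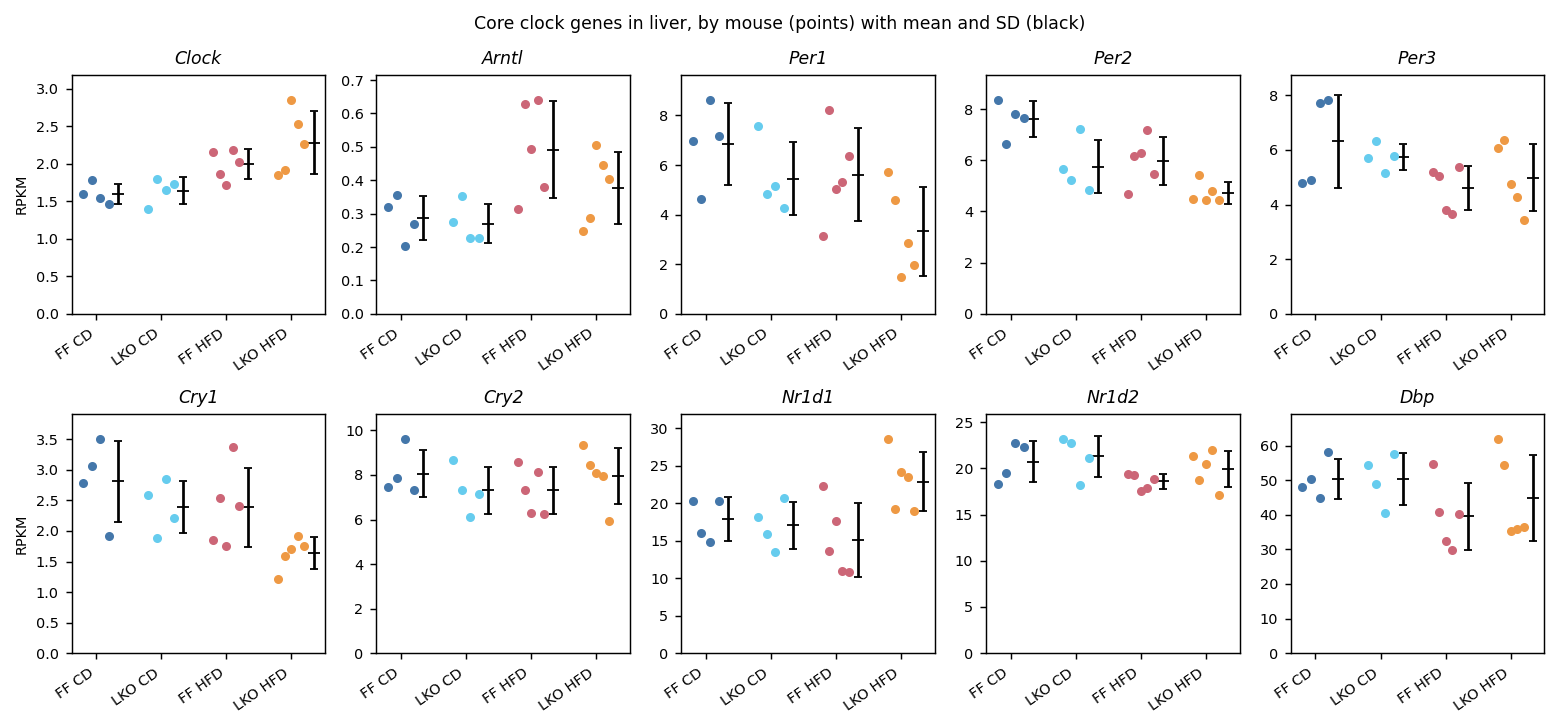
RPKM of the 10 clock genes (y axis, linear, from 0) in the 4 groups, 1 point per mouse in the order of the replicate numbers, with the group mean and SD in black. Arntl reached 0.640 RPKM in the FF HFD group and stayed at or under 0.354 RPKM in both CD groups, and every LKO HFD mouse lay above every LKO CD mouse for Clock. Of all tested genes 9.04% had no overlap between the LKO diet groups.

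Clock, a subunit of the activator, is on chromosome 5 (76209868 to 76304792, minus strand, GRCm38). It was measured at 1.59, 1.78, 1.54 and 1.46 RPKM in FF CD mice 1 to 4. In LKO CD mice 1 to 4 it was at 1.39, 1.79, 1.65 and 1.73 RPKM, so the genotypes overlapped throughout on CD. FF HFD mice 1 to 5 had 2.16, 1.87, 1.71, 2.18 and 2.03 RPKM, and LKO HFD mice 1 to 5 had 1.85, 1.92, 2.85, 2.53 and 2.26 RPKM. Every LKO HFD mouse was above every LKO CD mouse, whereas in FF mice the diet groups overlapped. Clock was the only member whose diet groups did not overlap in the LKO mice, where 9.04% of all tested genes had no overlap. In LKO mice the HFD difference was 0.31 on the log2(RPKM + 1) scale (SE 0.087, 95% interval 0.12 to 0.49, adjusted p = 0.0542 by limma), which missed the threshold. In FF mice it was 0.20 (SE 0.087, adjusted p = 0.106 by limma), and the difference between these diet effects was 0.10 with an interval of -0.15 to 0.36.

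Arntl, the partner of Clock, is on chromosome 7 (113207465 to 113314126, plus strand), and an antisense gene, Gm45355, overlaps an exon of it. FF CD mice 1 to 4 had 0.319, 0.354, 0.204 and 0.269 RPKM, and LKO CD mice 1 to 4 had 0.274, 0.351, 0.228 and 0.226 RPKM. FF HFD mice 1 to 5 had 0.314, 0.629, 0.494, 0.640 and 0.379 RPKM. LKO HFD mice 1 to 5 had 0.247, 0.288, 0.505, 0.445 and 0.405 RPKM. The CD mice thus formed a narrow low band, and the HFD mice ran from within that band, with FF HFD mouse 1 and LKO HFD mice 1 and 2, to well above it. In reads, 200 fell on Arntl in the 5 FF HFD libraries against 90 in the 4 FF CD libraries, and 151 in the 5 LKO HFD libraries against 85 in the 4 LKO CD libraries. Counting error alone is wide at this depth. For the 14 reads of FF CD mouse 3 an exact Poisson interval ran from 7.65 to 23.5 reads, which is 0.112 to 0.343 RPKM. The mean RPKM of the FF HFD group was 1.71 times that of the FF CD group, and the ratio was 1.40 in LKO mice. On the log2(RPKM + 1) scale, which understates the change of low genes, the difference in FF mice was 0.21 (SE 0.069, adjusted p = 0.0606 by limma without the filter) and in LKO mice 0.12 (SE 0.069, adjusted p = 0.457). With a pseudocount of 0.1 the FF difference was 0.59 and its adjusted p was 0.0725. Over the alternatives for Arntl, which were chosen after its low level was seen, that p ranged from 0.0214 to 0.384 and none gave a call. Genotype differences of Arntl were -0.02 on CD and -0.11 on HFD, both with intervals that held 0. Npas2, the paralogue of Clock that can also pair with BMAL1, had 0 to 8 reads a library and could not be compared.

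The Per genes encode the repressor that is induced through E-boxes, and Per1 (chromosome 11, 69095217 to 69109960, plus strand) also answers directly to glucocorticoids and other acute signals. Per1 was at 6.98, 4.63, 8.61 and 7.18 RPKM in FF CD mice 1 to 4 and at 7.57, 4.83, 5.16 and 4.26 RPKM in LKO CD mice 1 to 4. In FF HFD mice 1 to 5 it was at 3.13, 8.24, 5.04, 5.32 and 6.36 RPKM. In LKO HFD mice 1 to 5 it was at 5.73, 4.59, 1.49, 2.86 and 1.99 RPKM, and mice 3, 4 and 5 of this group were the lowest of all 18. Both genotype groups on HFD nevertheless overlapped. Per1 in LKO against FF mice on HFD differed by -0.66 (SE 0.25, interval -1.19 to -0.13, adjusted p = 0.156 by limma), and the HFD difference in LKO mice was -0.65 (SE 0.27, adjusted p = 0.161). Without LKO HFD mouse 1, the highest of its group, the first of these became -0.85 with an adjusted p of 0.0445, which would be a call, and over all alternatives that p ranged from 0.0445 to 0.373. Per1 had a larger spread within groups than 97.0% of the tested genes (residual SD 0.44 on the log2 scale).

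Per2 (chromosome 1, 91415982 to 91459324, minus strand), which like Per1 is induced through E-boxes, was at 8.35, 6.64, 7.82 and 7.65 RPKM in FF CD mice 1 to 4. The values were 5.68, 5.22, 7.21 and 4.86 RPKM in LKO CD mice 1 to 4. In FF HFD mice 1 to 5 they were 4.68, 6.17, 6.29, 7.20 and 5.47 RPKM, and in LKO HFD mice 1 to 5 they were 4.48, 5.44, 4.45, 4.81 and 4.46 RPKM. The FF CD group had the highest mean and the LKO HFD group the lowest, with LKO CD and FF HFD between them at 5.74 ± 1.03 (SD, n = 4) and 5.96 ± 0.94 RPKM (SD, n = 5), closer to each other than the spread of either. Per2 was the only tested member with an adjusted p under 0.05 in any comparison, at -0.31 (SE 0.11, adjusted p = 0.0489 by limma) for HFD against CD in FF mice, a fold under the 1.5 that a call required. That p ranged from 0.0257 to 0.170 over the alternatives. The difference between LKO and FF mice was -0.36 on CD (SE 0.12, adjusted p = 0.312) and -0.27 on HFD (SE 0.10, adjusted p = 0.150).

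Per3 (chromosome 4, 151003652 to 151044665, minus strand), whose promoter held the D-boxes shown above, ranged from 4.81 to 7.82 RPKM in FF CD mice and from 5.15 to 6.34 RPKM in LKO CD mice. On HFD it ranged from 3.66 to 5.38 RPKM in FF mice and from 3.42 to 6.36 RPKM in LKO mice. The FF CD mice split into a pair at 4.81 and 4.90 RPKM and a pair at 7.71 and 7.82 RPKM. The HFD difference was -0.37 in FF mice (SE 0.16, adjusted p = 0.114 by limma) and -0.19 in LKO mice (SE 0.16, adjusted p = 0.502). Its genotype differences had intervals that held 0 on both diets.

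The Cry genes encode the strongest repressors of the loop. Cry1 (chromosome 10, 85131700 to 85185064, minus strand), with an E-box and an E′-box in its promoter, ranged from 1.92 to 3.50 RPKM in FF CD mice, from 1.88 to 2.85 RPKM in LKO CD mice and from 1.76 to 3.38 RPKM in FF HFD mice. LKO HFD mice 1 to 5 had 1.21, 1.59, 1.71, 1.92 and 1.75 RPKM, the lowest group, although the top of it reached into every other group. Cry1 differed by -0.35 between LKO and FF mice on HFD (SE 0.13, interval -0.62 to -0.07, adjusted p = 0.152 by limma) and by -0.36 between HFD and CD in LKO mice (SE 0.14, adjusted p = 0.140). Cry2 (chromosome 2, 92403646 to 92434043, minus strand) stayed within 5.94 to 9.59 RPKM in all mice, and its 5 fitted differences lay between -0.13 and 0.23 with intervals that all held 0. D930015M05Rik, the gene on the other strand, was at 0.332 RPKM or less.

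Nr1d1 and Nr1d2 encode the REV-ERB repressors of Arntl. Nr1d1 (chromosome 11, 98767932 to 98775333, minus strand) was at 20.3, 16.0, 14.8 and 20.4 RPKM in FF CD mice 1 to 4 and at 18.2, 15.9, 13.5 and 20.7 RPKM in LKO CD mice 1 to 4. In FF HFD mice 1 to 5 it was at 22.3, 13.7, 17.7, 11.0 and 10.8 RPKM. In LKO HFD mice 1 to 5 it was at 28.5, 19.3, 24.2, 23.5 and 19.0 RPKM, the highest group mean. FF HFD mouse 1 was the one FF HFD liver that reached into the LKO HFD range. The LKO HFD mean was 1.52 times the FF HFD mean, with a difference of 0.61 (SE 0.18, interval 0.24 to 0.97, adjusted p = 0.0576 by limma). This was the clock difference closest to a call. It passed under some alternatives, among them without FF HFD mouse 1 (0.75, adjusted p = 0.0109) and with quantile normalization (0.60, adjusted p = 0.0430), and over all alternatives the adjusted p ranged from 0.0109 to 0.146. The HFD difference was -0.27 in FF mice (SE 0.19) and 0.41 in LKO mice (SE 0.19), and the interaction was 0.67 (SE 0.26, adjusted p = 0.197). Thra, whose exon overlaps that of Nr1d1, was at 2.48 to 4.42 RPKM and differed by 0.23 between LKO and FF mice on HFD (SE 0.10, adjusted p = 0.215), and its share in the reads of Nr1d1 was not tested. Nr1d2 (chromosome 14, 18204054 to 18239127, minus strand) was the steadiest member, at 17.1 to 23.1 RPKM in all 18 mice. Its 5 differences lay between -0.15 and 0.09, and none of their intervals reached a fold of 1.5 in either direction. The REV-ERB genes were thus measured with unequal differences between the genotypes on HFD, 0.61 and 0.09, although the difference between the genes was not tested.

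Dbp, the PAR bZIP factor that carries the phase of the loop to genes of detoxification, is on chromosome 7 (45705088 to 45710203, plus strand). It was at 48.1, 50.2, 45.0 and 58.2 RPKM in FF CD mice 1 to 4 and at 54.5, 48.9, 40.4 and 57.5 RPKM in LKO CD mice 1 to 4. In FF HFD mice 1 to 5 it was at 54.6, 40.9, 32.5, 29.8 and 40.2 RPKM. In LKO HFD mice 1 to 5 it was at 61.8, 54.5, 35.4, 36.0 and 36.6 RPKM. On CD the group means were 50.4 ± 5.7 (SD, n = 4) and 50.3 ± 7.5 RPKM (SD, n = 4), and on HFD each group held livers in the CD range beside livers below it. The HFD difference was -0.36 in FF mice (SE 0.18, interval -0.75 to 0.02, adjusted p = 0.171 by limma) and -0.19 in LKO mice (SE 0.18, adjusted p = 0.573). The genotype difference was -0.01 on CD, with an interval of -0.41 to 0.40, and 0.17 on HFD, with an interval of -0.20 to 0.53. Sphk2, on the other strand, had an adjusted p of 0.00925 for HFD against CD in FF mice at a difference of 0.43, opposite in sign to that of Dbp.

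**Figure D2:**
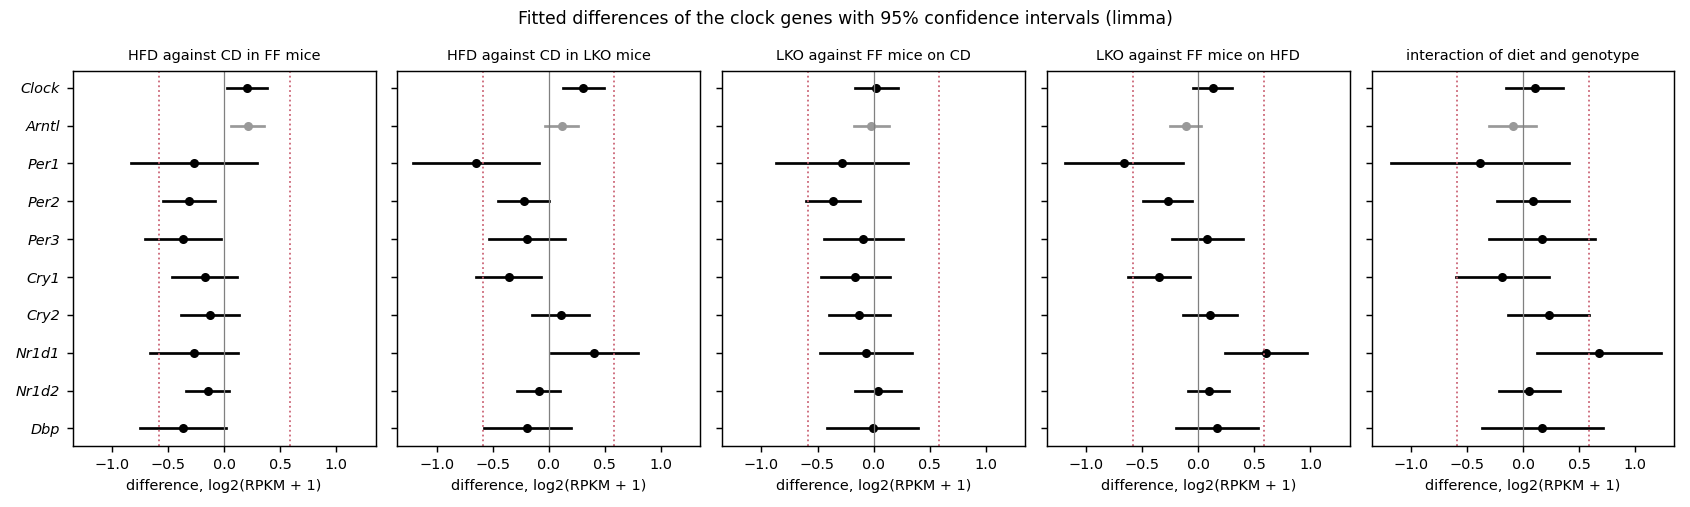
Fitted differences (x axis, log2(RPKM + 1)) of the 10 clock genes in the 4 group comparisons and the interaction of diet and genotype, with 95% confidence intervals from limma. Arntl, in grey, comes from the fit without the filter, and dotted lines mark a fold of 1.5. The estimates of Nr1d1 and Per1 on HFD (0.61 and -0.66) lie past those lines with intervals that reach back inside them.

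Read together by direction, 8 of the 9 tested members had a fitted HFD difference below 0 in FF mice, with a median of -0.27 against 0.07 over all tested genes, and Clock was the exception. In LKO mice 6 of 9 were below 0, with a median of -0.19 against 0.07. For LKO against FF mice 7 of 9 were below 0 on CD, where Dbp turned above 0 on rescaling to the same sum and Nr1d2 below it with quantile normalization, with a median of -0.09 against 0.03, and 3 of 9 on HFD, with a median of 0.09 against 0.03. These genes are linked by the loop and are not independent of each other, and no test was made of the list. No member other than Clock had groups that did not overlap in any of the 4 comparisons. Over all tested genes 18.3% did not overlap between the diets in FF mice, 5.07% between the genotypes on CD and 4.67% between the genotypes on HFD.

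Several members varied widely between mice of the same group when set beside the other tested genes. After Per1, the residual SD of Nr1d1 stood above that of 90.5% of the tested genes, that of Dbp above 89.8%, that of Per3 above 84.6% and that of Cry1 above 75.9%. Cry2 and Per2 were nearer the middle, at 62.9% and 51.0%, and Nr1d2 and Clock were below it, at 25.9% and 24.9%. The spread on this scale also depends on the level of a gene. Among the HFD livers, LKO HFD mice 1 and 2 had the highest Dbp, Per1 and Per3 and the lowest Arntl and Clock of their group. FF HFD mouse 1 had the highest Dbp and Nr1d1 and the lowest Arntl, Per1 and Per2 of its group. The ratio of Dbp to Arntl was 142 to 220 in FF CD mice and 139 to 255 in LKO CD mice. In FF HFD mice it was 46.6 to 174 with a median of 65.8, and in LKO HFD mice 70.1 to 250 with a median of 90.4. The ratios carry the counting error of Arntl, which rested on 14 to 52 reads a library. By these ratios both HFD groups held livers inside the range of the CD groups and livers below it. No hour of collection is known for any of them, and the part of sampling time in this spread was not tested.

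**Figure D3:**
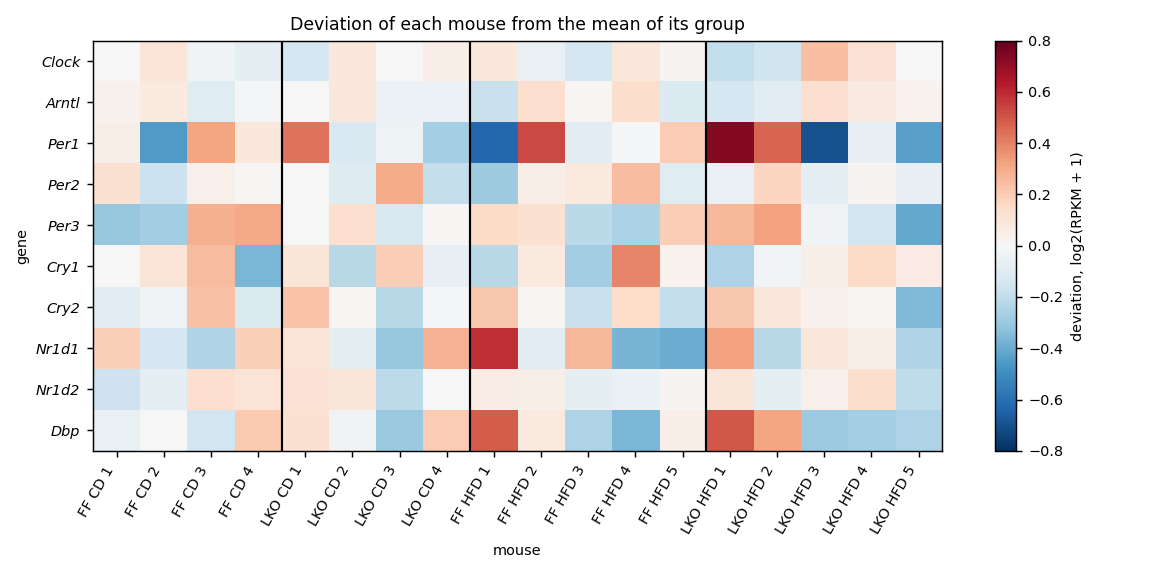
Deviation of each mouse (columns) from the mean of its group for each clock gene (rows), in log2(RPKM + 1), with vertical lines between the groups; red is above and blue below the group mean. Dbp of FF HFD mouse 1 and of LKO HFD mice 1 and 2 deviates upward by 0.48, 0.49 and 0.31, and Arntl of the same mice downward.

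Whether Arntl moved against the genes of the opposite phase was examined across the 18 mice, on deviations from the group means, with 100000 permutations of mice within groups (two-sided). Of 9 relations, 0 passed at an adjusted p under 0.05, and 2 had an unadjusted permutation p under 0.05. Arntl and Dbp gave Pearson r = -0.65 (permutation p = 0.0208, adjusted p = 0.155) and Spearman rho = -0.59 (permutation p = 0.0277, adjusted p = 0.124). Arntl and Per3 gave r = -0.55 (permutation p = 0.0343, adjusted p = 0.155) and rho = -0.59 (permutation p = 0.0176, adjusted p = 0.124). Without FF HFD mice 2 and 4, the livers farthest from the median of Arntl, r was -0.68 for Dbp and -0.62 for Per3 (adjusted permutation p = 0.146 for each). Taken group by group, with 4 or 5 mice each and so too few for a value of r, the relation to Dbp was below 0 in both HFD groups and above 0 in both CD groups, and that to Per3 was below 0 in 3 groups and above 0 in the LKO CD group. The range of Arntl came from the HFD livers, at 0.247 to 0.640 RPKM, while the CD livers had Arntl at 0.204 to 0.354 RPKM and Dbp at 40.4 to 58.2 RPKM. Arntl and its partner Clock gave r = 0.45 (permutation p = 0.106, adjusted p = 0.317). Nr1d1, which represses Arntl, gave r = -0.29 (permutation p = 0.374, adjusted p = 0.554), and the other 5 members lay between -0.23 and 0.36.

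**Figure D4:**
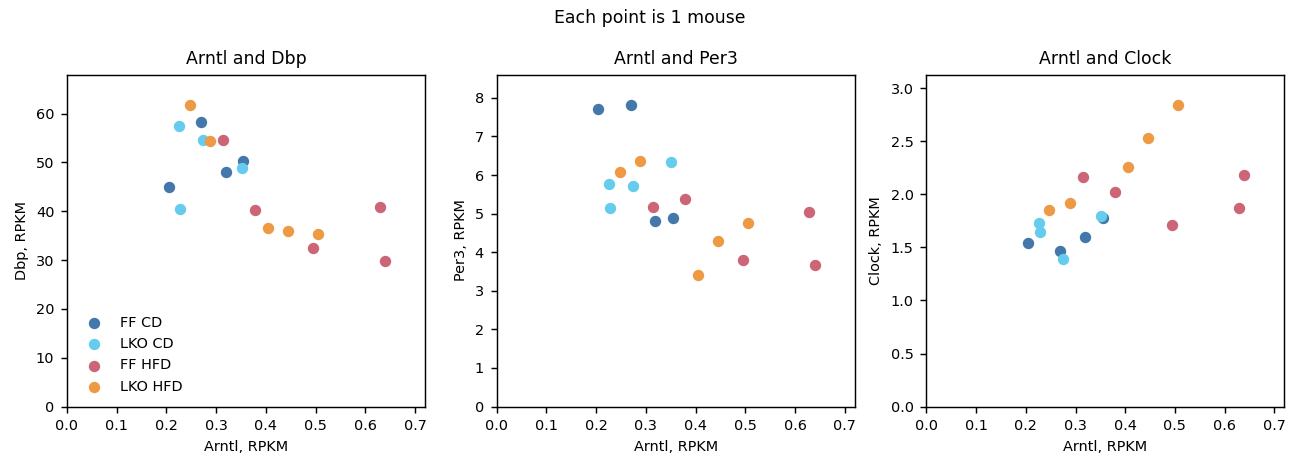
RPKM of Dbp, Per3 and Clock (y axes) against RPKM of Arntl (x axis), 1 point per mouse, coloured by group. Livers with Arntl above 0.4 RPKM, all from HFD mice, have Dbp at or under 40.9 RPKM, while livers with Arntl below 0.36 RPKM have Dbp from 40.4 to 61.8 RPKM.

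Some genes outside the loop followed Dbp or Arntl closely from mouse to mouse. Among 9721 other genes with a mean of at least 1 RPKM, those most like Dbp over the 18 mice were Slc6a12 (Pearson r = 0.91), Asgr2 (0.90), Fau (0.89), Rps15 (0.88) and Kxd1 (0.88). Those most like Arntl were Susd6 (0.92), Dusp3 (0.87), Ehd4 (0.87), Ivns1abp (0.87) and Snx16 (0.87). Fau and Rps15 encode proteins of the small ribosomal subunit, and Slc6a12 and Asgr2 a betaine transporter and a subunit of the hepatocyte asialoglycoprotein receptor. Rps15 was at 174 to 194 RPKM in FF CD mice, 158 to 203 RPKM in LKO CD mice, 132 to 165 RPKM in FF HFD mice and 132 to 188 RPKM in LKO HFD mice, so the LKO CD mice overlapped both HFD groups. Within groups the r of Fau and Dbp was 0.89. These genes were picked for the highest r among 9721, so high values follow in part from the selection. All of the values come from the same libraries, and what else in a library moves with them was not tested.

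Genes coupled to the loop were read from lists. Nfil3, which encodes a repressor at D-boxes, differed by -0.003 between the genotypes on HFD and was called in none of the 5 comparisons. Of the 10 genes on the Dbp side (Tef, Hlf, Ciart, Usp2, Wee1, Bhlhe40, Bhlhe41, Nampt, Lonrf3 and Rgs16), 0 were called in any comparison. Rgs16, a regulator of G protein signalling with a daily rhythm in liver, was at 84.7 ± 20.3 RPKM in FF CD mice (SD, n = 4) and 43.5 ± 11.6 RPKM in LKO CD mice (SD, n = 4), without overlap. Between the genotypes on CD 5.07% of all tested genes had no overlap. The difference of Rgs16 was -0.96 on CD (SE 0.24, adjusted p = 0.123 by limma), and on HFD it was -0.73 (SE 0.22, adjusted p = 0.0636). Ciart, a repressor of CLOCK:BMAL1, differed by -0.64 on CD (SE 0.27, adjusted p = 0.538) and by -0.44 on HFD (SE 0.24, adjusted p = 0.321). The medians of this list were -0.16 for LKO against FF mice on CD and -0.25 on HFD, beside 0.03 over all tested genes on either diet. Of 18 kinases, ubiquitin ligases and co-regulators of the clock, 0 were called in any comparison. Prkaa2, which encodes the α2 catalytic subunit of AMPK, differed by -0.29 for HFD in FF mice (SE 0.098, adjusted p = 0.0418 by limma), under the fold of 1.5. Timeless, named here after its values were seen, was the only other gene of this list with an adjusted p under 0.05. It differed by 0.29 for HFD in FF mice (SE 0.067, adjusted p = 0.00537 by limma) and by 0.36 in LKO mice (SE 0.067, adjusted p = 0.0140). Both were under that fold on the log2(RPKM + 1) scale, which understates the change of low genes. In FF mice the mean of Timeless was 0.546 RPKM on CD and 0.891 RPKM on HFD. In LKO mice it was 0.528 RPKM on CD and 0.964 RPKM on HFD.

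**Figure D5:**
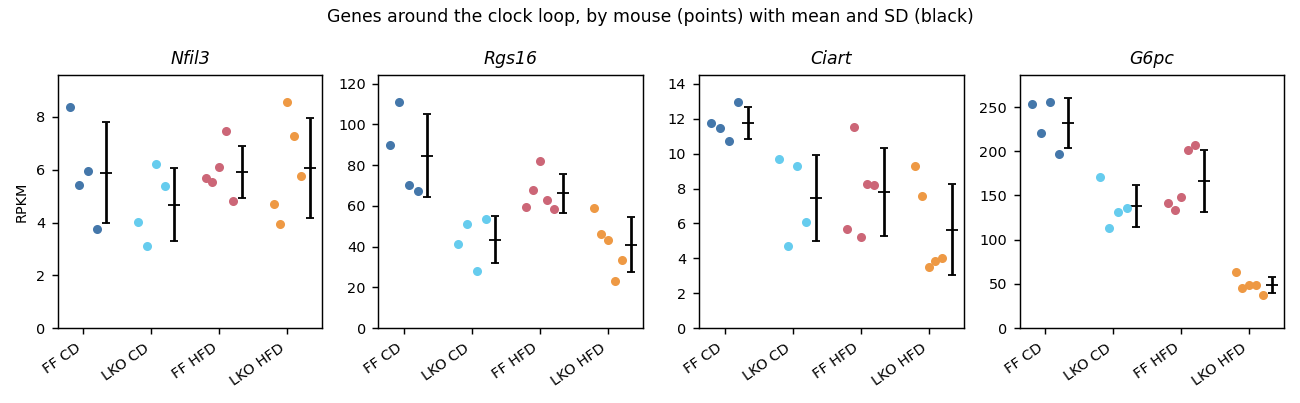
RPKM (y axis, linear, from 0) of Nfil3, Rgs16, Ciart and G6pc in the 4 groups, 1 point per mouse, with the group mean and SD in black. The 4 LKO CD mice lie below the 4 FF CD mice for Rgs16 and Ciart, and the 5 LKO HFD mice lie below all other mice for G6pc. Of all tested genes 5.07% had no overlap between the genotypes on CD and 4.67% on HFD.

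Some genes downstream of the loop were called. The share over all tested genes was 6.6% for HFD in FF mice, 1.27% for HFD in LKO mice and 2.07% for LKO against FF mice on HFD. Of 6 targets of the PAR bZIP factors 1 rose with HFD in FF mice, Nr1i3 (CAR, a xenobiotic receptor), by 0.99 (SE 0.17, adjusted p = 0.000746 by limma). Cyp2a5, a cytochrome P450 gene, fell by 1.28 in LKO against FF mice on HFD (SE 0.30, adjusted p = 0.0214). Among targets of REV-ERB outside the loop, Insig2 rose with HFD in FF mice by 1.55 (SE 0.26, adjusted p = 0.000479 by limma). G6pc, the catalytic subunit of glucose-6-phosphatase, fell by 1.48 with HFD in LKO mice, and G6pc and Insig2 fell by 1.74 and 0.89 in LKO against FF mice on HFD. G6pc had an adjusted p of 3.06e-06 there. Many other signals act on these genes, and their link to the clock in these livers was not tested.

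Lists that answer to food, stress hormones, temperature or handling were given for the same reason, since they can move with the hour or manner of collection. Over all tested genes 6.6% were called for HFD in FF mice and 1.27% in LKO mice. For LKO against FF mice the share was 0.225% on CD and 2.07% on HFD, and for the interaction it was 2.44%. Of 10 feeding- and fasting-responsive genes, 5 rose (Angptl4, Fgf21, Igfbp1, Pdk4 and Txnip) and 2 fell (Lpin1 and Srebf1) with HFD in FF mice, where the median of the list was 0.35 beside 0.07 over all tested genes. In LKO mice 1 rose (Txnip) and 2 fell (G6pc and Lpin1) with HFD. For LKO against FF mice 0 of 10 were called on CD and 2 fell on HFD (G6pc and Igfbp1), with a median of -0.49 beside 0.03, and in the interaction G6pc and Pdk4 fell. Of 6 glucocorticoid-responsive genes, Fkbp5 rose with HFD in LKO mice by 0.95 (SE 0.26, adjusted p = 0.0478 by limma). The median of this list went the other way there, at -0.32 beside 0.07 over all tested genes. For LKO against FF mice on HFD its median was -0.34 beside 0.03. Dusp1 fell by 1.496 in LKO against FF mice on HFD (SE 0.18, adjusted p = 9.95e-05), and the other 3 comparisons called 0 of 6. Of 6 temperature-responsive genes tested, 0 were called in any comparison. Of 5 immediate early genes tested, Atf3, Egr1 and Jun rose with HFD in FF mice, Egr1 rose with HFD in LKO mice by 1.80, and Egr1 rose by 1.02 in LKO against FF mice on HFD. The part of feeding state, handling and collection time in the clock values was not tested.

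Some markers of liver cell types were called. The share called over all tested genes was 6.6% for HFD in FF mice and 1.27% in LKO mice. Between LKO and FF mice it was 0.225% on CD and 2.07% on HFD. Of 7 Kupffer cell genes 3 rose with HFD in FF mice (Adgre1, Csf1r and Vsig4) and 1 in LKO mice (Clec4f), and their summed level was 44.4 to 63.5 RPKM in FF CD mice and 53.2 to 103 RPKM in FF HFD mice. In LKO mice it was 37.7 to 60.3 RPKM on CD and 51.5 to 102 RPKM on HFD. Of 6 genes of sinusoidal endothelial cells 3 rose in FF mice (Clec4g, Lyve1 and Pecam1), with sums of 17.8 to 40.0 RPKM on CD and 46.7 to 74.3 RPKM on HFD, and 0 were called in LKO mice (13.7 to 38.8 and 36.4 to 50.8 RPKM). Of 6 hepatocyte genes Apoa1 and Cps1 fell with HFD in FF mice and Apoa1 rose in LKO against FF mice on HFD, with sums between 30235 and 48233 RPKM in all mice. No marker of stellate cells, cholangiocytes, lymphocytes or erythroid cells was called in any comparison. Adipoq, Plin1 and Lep were listed at 0 in every CD mouse, and their sum was at most 1.13 RPKM on HFD. For LKO against FF mice on CD, no marker of any of these cell types was called. The part of cell composition in the clock values was not tested.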

How the data were processed

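Livers of 18 male mice in 4 groups (FF CD and LKO CD, n = 4; FF HFD and LKO HFD, n = 5) were profiled by RNA-seq, 1 library a mouse. Per the labels and the study's methods, the authors aligned reads with HISAT2 2.0.4 to mm10 and quantified genes in Partek; the deposited values are RPKM per gene, and annotation, strand and treatment of multi-mapped reads are not given in the sources used here. Depth was estimated from the smallest steps of the RPKM of genes with 1 exon, and intervals on recovered reads cover counting error only. Here log2(RPKM + 1) was fitted with limma 3.58.1 (R 4.3.3; 4 group means, trended variances) where the mean over all mice reached 0.5 RPKM, with Benjamini-Hochberg adjustment, and the code was tested on simulated data. The labels number the mice of a group but do not tie them to litters or cages, so p-values measure the spread between these libraries. Alternatives were a pseudocount of 0.1, no filter or a filter at a mean of 1 RPKM, rescaling to the same sum, quantile normalization, only the groups compared, a block for the replicate number, calls by adjusted p with no fold limit, and leaving out each mouse in turn. Correlations used 100000 within-group permutations (scipy 1.17.1). Promoters were taken from RefSeq. The text names all members, the called genes of each list or else up to 3 with the largest difference, and the 5 genes most like Arntl and Dbp. The members and lists were chosen with earlier results of these data known. The alternatives for Arntl were added after its low level was seen. A few genes of the lists are not reported here.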

Additional observations from a re-analysis of the deposited data

Results flagged for a closer look

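Among the genes named above, 2 had a diet effect that differed between the genotypes by limma's interaction term. The HFD effect on Pdk4, a kinase that restrains glucose oxidation, was lower in LKO than in FF mice, at a difference of -1.39 on the log2(RPKM + 1) scale (SE 0.34, adjusted p = 0.0299), with group means of 0.938 and 5.62 RPKM in FF mice on CD and HFD and of 1.93 and 2.84 RPKM in LKO mice. The HFD effect on G6pc was also lower in LKO mice, at a difference of -0.99 (SE 0.23, adjusted p = 0.0256), with means of 231.7 and 166.2 RPKM in FF mice and of 137.8 and 48.8 RPKM in LKO mice. In the 40 groups of values of the clock genes no mouse lay far enough from the rest of its group to pass Dixon's test, where chance alone gives about 1 in 20.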

How the results depend on the processing

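The counts of called clock genes stayed at 0 under every alternative for HFD against CD in LKO mice, for LKO against FF mice on CD and for the interaction. For LKO against FF mice on HFD the count was 1 with quantile normalization (Nr1d1), and 1 with the replicate block (Nr1d1, 0.61, adjusted p = 0.0314 by limma), and it ranged from 0 to 1 when 1 mouse was left out (Nr1d1 without FF HFD mouse 1, Per1 without LKO HFD mouse 1). For HFD against CD in FF mice it was 1 with the adjusted p alone (Per2). Of 25 same-numbered pairs of mice 10 correlated above 0.1 (r from -0.17 to 0.33). Pairs with unlike numbers were not compared, so these values cannot show whether the replicate numbers pair the mice. The block changed no other call of a clock gene. The number of correlations of Arntl that passed rose from 0 to 1 on rescaling to the same sum (Dbp, r = -0.72, adjusted permutation p = 0.0467) and to 3 with values not centred on the group means (Clock 0.56, Per3 -0.68 and Dbp -0.75, where group differences enter). The correlation of Arntl with Per2 changed sign without the 2 mice farthest from the median of Arntl (-0.0586) and without centring (-0.074).

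Sign changes were confined to differences near 0. For LKO against FF mice on CD, leaving out 1 mouse gave -0.0031 to 0.0718 for Clock, -0.0502 to 0.0063 for Arntl, -0.19 to 0.0094 for Per3, -0.16 to 0.0319 for Nr1d1, -0.0181 to 0.11 for Nr1d2 and -0.0746 to 0.092 for Dbp, quantile normalization gave -0.0255 for Nr1d2, and rescaling gave 0.0076 for Dbp. On HFD, Per3 ranged from -0.0011 to 0.18, and the interaction of Nr1d2 ranged from -0.0151 to 0.11 and was -0.0141 on rescaling. The number of all genes called moved by over 1.5 times under some settings. For HFD in FF mice it was 732, against 1254 with a pseudocount of 0.1 and 2287 with the adjusted p alone. For HFD in LKO mice it was 141, against 272 with a pseudocount of 0.1, 47 without the filter, 87 with quantile normalization, 40 with only the compared groups and 449 with the adjusted p alone, and it ranged from 17 (without LKO CD mouse 3) to 237 (without LKO HFD mouse 1). Between LKO and FF mice it was 25 on CD (12 without the filter, 11 to 45 with 1 mouse left out) and 230 on HFD (152 without the filter, 466 with the adjusted p alone, 132 to 318 with 1 mouse left out), and for the interaction 271 (169 without the filter, 411 on rescaling, 156 to 392 with 1 mouse left out). Scaling also moved the split of higher and lower calls. With quantile normalization 567 higher and 165 lower became 423 and 224 for HFD in FF mice, and 107 and 34 became 48 and 39 in LKO mice. On rescaling 10 and 15 became 16 and 15 for the genotypes on CD, 100 and 130 became 83 and 167 on HFD, and 105 and 166 became 112 and 299 for the interaction. Depth limits Arntl and Npas2 most.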
